A study of Mus musculus with 2 samples.

Results

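The Ly49 receptors are encoded by the Klra genes, and 6 of them were followed here: Klra1, Klra3, Klra4, Klra7, Klra8 and Klra9. They were chosen by name and are 6 of the 11 Klra genes and of the 32285 genes in the files. They were measured in CD45+ cells, the leukocytes, sorted alive from the adrenal glands of C57Bl/6 mice aged 7 weeks, and each sex gave 1 droplet library. The labels name no genotype or treatment, and how many animals each library pools is not given in the sources used here. A single library stood for each sex, without replicates, so no test was run and no p-value is given. The intervals are 95% intervals that cover counting error only.

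Levels are unique molecular identifiers (UMIs) of a gene summed over the cells of a class, as counts per 1e6 UMIs of that class (CPM). After filtering, the female library held 3693 cells and the male library 2450, with medians of 3491 and 2988 UMIs per cell. Clusters were rebuilt without any Klra gene among their features and were named from marker genes. Among the cells were 351 female and 167 male conventional NK cells, 510 and 204 ILC1-like NK cells, 430 and 241 cells of a T cluster that no subset gene defined, 261 and 131 cells of a T cluster with Cd8a or Cd8b1 in 55.9% of its cells, and 126 and 83 innate lymphoid cells (ILCs). Libraries shared 2 cell barcodes.

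Ly49 receptors are lectin-like receptors for MHC class I molecules and are carried mainly by mouse NK cells. Klra1 (Ly49A), Klra3 (Ly49C), Klra7 (Ly49G2) and Klra9 (Ly49I) are inhibitory: their tails recruit the phosphatase encoded by Ptpn6. Klra4 (Ly49D) and Klra8 (Ly49H) are activating and signal through the adaptor encoded by Tyrobp, and Ly49H recognises a protein of mouse cytomegalovirus. Each NK cell carries its own combination of these receptors.

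NK clusters were divided by 2 pairs of genes. Eomes and Itga2, which mark conventional NK cells, summed to 432 CPM in female and 507 CPM in male conventional cells and to 108 and 66.3 CPM in ILC1-like cells. Itga1 and Cd160 summed to 104 and 117 CPM in conventional cells and to 652 and 736 CPM in ILC1-like cells. Genes outside these pairs, which had still shaped the clusters, differed too. Zeb2 stood at 490 and 399 CPM in conventional cells against 37.3 and 21.5 CPM in ILC1-like cells. Cxcr6 stood at 4.55 and 7.96 CPM against 190 and 292 CPM. Single cells followed the division less sharply: 8.83% of female and 7.78% of male conventional cells had more UMIs of the Itga1 and Cd160 pair than of the other.

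The members lie in the Ly49 gene cluster, which also holds Klra10 and Klra pseudogenes, on the minus strand of chromosome 6 (GRCm38, the mm10 build named in the labels), from 130043731 to 130386874, a stretch of 343 kb. In order of position they are Klra4, Klra8, Klra9, Klra7, Klra3 and Klra1. No annotated gene overlaps a member. To show how alike their start regions are, the RefSeq windows (GRCm38.p6, minus strand, 250 bases before to 50 after the annotated start) of both activating members, of inhibitory Klra9 and of Klra1 are printed, with capitals for a 17-base run that the windows of Klra3, Klra4, Klra8 and Klra9 share. They lie at chr6:130067222-130067521, chr6:130129849-130130148, chr6:130193063-130193362 and chr6:130386825-130387124.
Klra4: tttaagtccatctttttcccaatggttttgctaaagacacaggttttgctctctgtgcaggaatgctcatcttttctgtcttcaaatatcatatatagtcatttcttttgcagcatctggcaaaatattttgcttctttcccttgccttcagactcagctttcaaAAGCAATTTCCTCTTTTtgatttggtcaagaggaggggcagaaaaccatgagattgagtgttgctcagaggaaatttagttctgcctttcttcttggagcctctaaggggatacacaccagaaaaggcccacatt
Klra8: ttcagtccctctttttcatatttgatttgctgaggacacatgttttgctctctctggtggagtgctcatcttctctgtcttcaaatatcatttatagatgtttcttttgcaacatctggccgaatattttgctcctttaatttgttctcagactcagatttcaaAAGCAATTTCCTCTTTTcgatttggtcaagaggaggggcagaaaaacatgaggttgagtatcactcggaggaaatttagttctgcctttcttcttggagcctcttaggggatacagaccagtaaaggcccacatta
Klra9: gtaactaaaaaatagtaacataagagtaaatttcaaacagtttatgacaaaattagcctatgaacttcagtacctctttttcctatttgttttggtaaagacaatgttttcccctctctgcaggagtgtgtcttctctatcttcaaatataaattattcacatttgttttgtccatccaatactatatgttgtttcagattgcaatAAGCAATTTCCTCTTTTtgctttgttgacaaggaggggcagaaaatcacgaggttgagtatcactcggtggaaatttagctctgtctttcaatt
Klra1: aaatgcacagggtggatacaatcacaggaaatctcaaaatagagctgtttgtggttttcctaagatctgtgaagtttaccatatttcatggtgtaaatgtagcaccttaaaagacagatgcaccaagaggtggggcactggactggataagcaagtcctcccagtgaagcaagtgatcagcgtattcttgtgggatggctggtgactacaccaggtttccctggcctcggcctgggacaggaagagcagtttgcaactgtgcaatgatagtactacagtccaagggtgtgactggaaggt

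The run was searched on both strands of each window. It occurred in 8 of 32851 windows (0.0244%), which belonged to Klra3, Klra4, Klra6, Klra8, Klra9, Klra17 and the predicted gene Gm52487. The windows of Klra1 and Klra7 lack it, although Klra7 shares an 11-base part of it. Of the letters TGTGGT (the core of Runx motifs, present on either strand in 16.8% of all windows) and GGTGTGA (the core of T-box motifs, 3.98%), each was found in the window of Klra1 and in none of the other 7 member windows.

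The same likeness limits the counts. Library reads covered 55 bases near the 3′ end, and of the 55-base windows in the last 500 bases of each transcript, 40.8% of Klra9 and 37.2% of Klra3 also occur in another Klra transcript or pseudogene, most often in each other. The share was 25.1% for Klra7, 8.97% for Klra8, 4.71% for Klra1 and 3.59% for Klra4. Klra3 and Klra9 transcripts were 96.2% identical, so their levels and their division between the 2 genes are uncertain. UMIs count 3′ ends and were not divided by length.

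Conventional NK cells held the highest Ly49 level in both libraries. The 6 members summed to 3576 CPM (3474 to 3679) in female and 3446 CPM (3315 to 3581) in male conventional cells, against 1304 CPM (1262 to 1348) and 1276 CPM (1213 to 1341) in ILC1-like cells. Conventional cells were thus higher by 2.74-fold (2.62 to 2.86) and 2.70-fold (2.54 to 2.88).

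Of the 6 members, the activating receptors differed most between the 2 kinds of NK cell. Klra4 stood at 896 CPM in female and 1008 CPM in male conventional cells and at 215 and 158 CPM in ILC1-like cells, a ratio of 4.17 (3.77 to 4.61) and 6.37 (5.43 to 7.51). Klra8 stood at 847 and 833 CPM against 226 and 189 CPM, a ratio of 3.75 (3.39 to 4.14) and 4.41 (3.79 to 5.16). Both genes were far apart in the 2 kinds of cell in either library, although 5 of the 204 male ILC1-like cells held 40.3% of the Klra4 and 43.9% of the Klra8 UMIs there.

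The inhibitory members differed less. Klra3 stood at 421 and 307 CPM in conventional cells and at 148 and 128 CPM in ILC1-like cells, a ratio of 2.85 (2.50 to 3.25) and 2.39 (1.94 to 2.95). Klra7 stood at 650 and 609 CPM against 366 and 249 CPM, a ratio of 1.78 (1.62 to 1.95) and 2.45 (2.11 to 2.84). The libraries parted at Klra9, with 610 and 604 CPM in conventional cells but 258 and 476 CPM in ILC1-like cells, so that its ratio was 2.36 (2.13 to 2.62) in the female and 1.27 (1.12 to 1.44) in the male library. Klra1 was the lowest member in conventional cells, at 152 and 84.9 CPM, and stood at 91.6 and 76.2 CPM in ILC1-like cells. Its ratio was 1.66 (1.37 to 2.00) in the female library, and in the male library 1.11 (0.797 to 1.55), an interval that includes equal levels.

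Klra3, Klra4 and Klra8 were at least 2-fold higher in conventional cells in both libraries, 3 of the 6 members, where 1.95% of the 7785 genes with at least 20 UMIs in each library's NK cells were. None of the members was 2-fold lower in both, where 2.17% of genes were. The median log2 ratio of the members was 1.38 in the female and 1.27 in the male library, beside 0.09 and 0.00 over all genes tested. Klra3 fell short of 2-fold in the male library (1.67) when clustering was run at resolution 2, where a cluster of ILC1-like cells stayed unnamed.

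**Figure D1:**
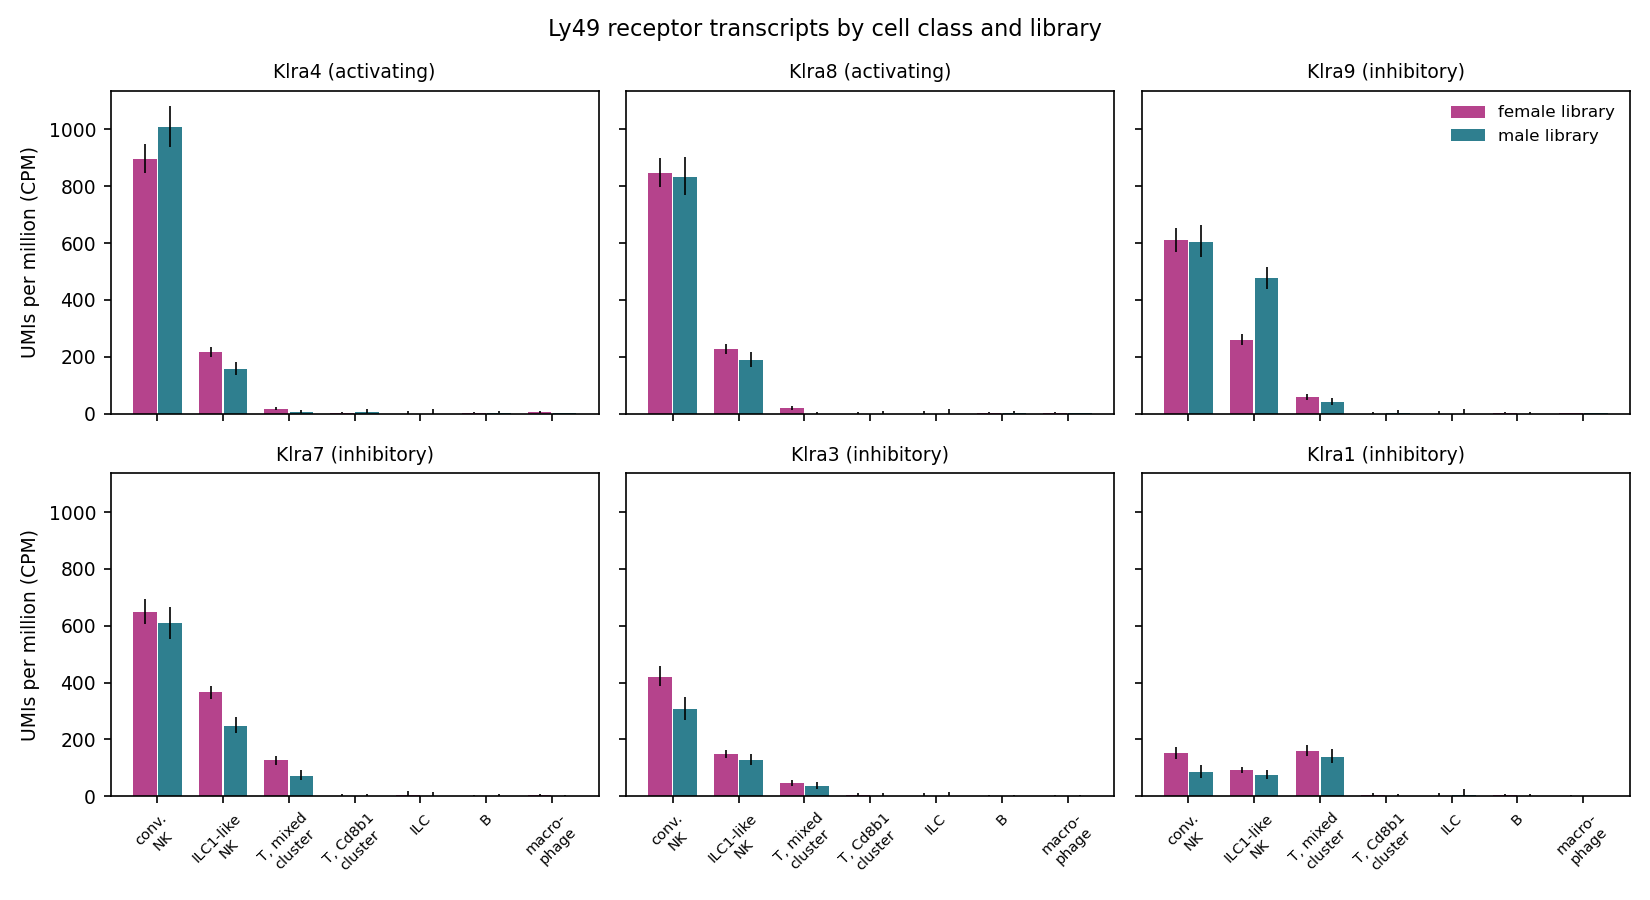
Level of each Ly49 gene in CPM (linear axis) in 7 cell classes of the female and male library, with bars for the level and lines for the 95% Poisson interval. Klra4 and Klra8 are highest in conventional NK cells and close to 0 in T cells, while Klra1 reaches 160 and 139 CPM in the mixed T cluster.

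The make-up of the Ly49 pool changed from class to class. Klra4 and Klra8 gave 48.7% (47.3 to 50.2) of the members' UMIs in female and 53.4% (51.5 to 55.4) in male conventional cells. In ILC1-like cells they gave 33.8% (32.3 to 35.4) and 27.2% (25 to 29.5). In the mixed T cluster they gave 8.27% (6.48 to 10.4) and 1.76% (0.574 to 4.06), so nearly all Ly49 UMIs there were of inhibitory receptors.

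**Figure D2:**
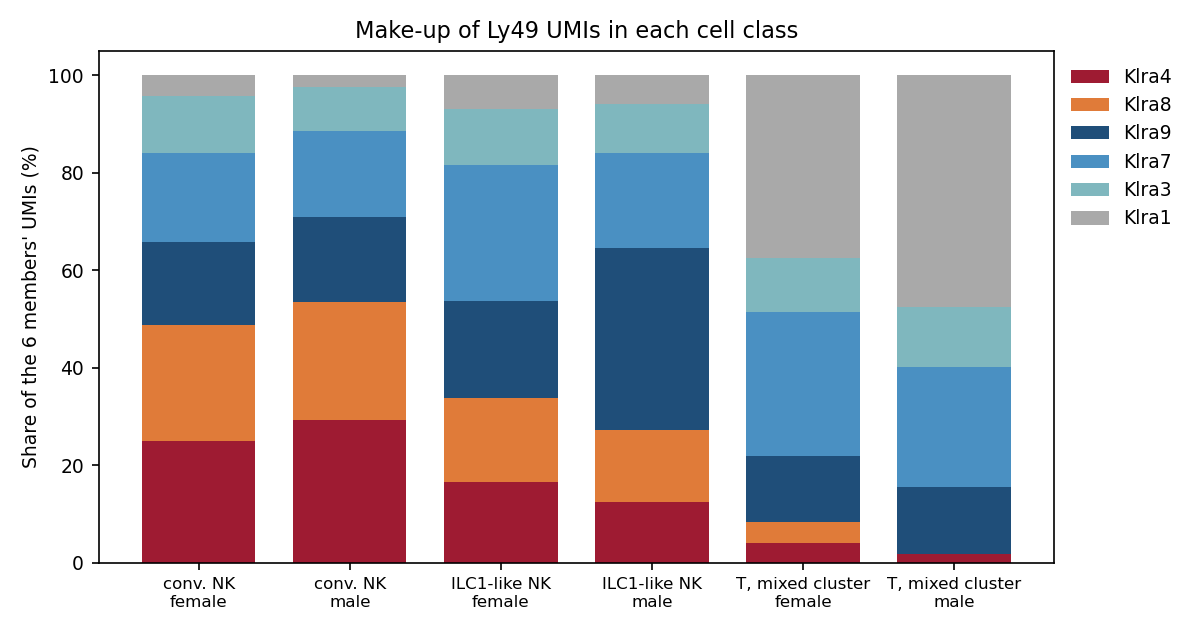
Share of the 6 members' UMIs (%) given by each gene in conventional NK cells, ILC1-like NK cells and the mixed T cluster of each library. The activating Klra4 and Klra8, drawn at the base of each bar, give 48.7% and 53.4% in conventional NK cells and 8.27% and 1.76% in the mixed T cluster.

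Among T cells, Ly49 transcripts lay in the mixed cluster, led by Trac, Cd3e, Tcrg-C2, Cd40lg and Cxcr6. The members summed to 426 CPM (397 to 456) in female and 293 CPM (260 to 330) in male cells of this cluster. In the T cluster led by Dapl1, Cd8b1, Lef1 and Ccr7, they summed to 14.9 CPM (8.32 to 24.5) and 8.79 CPM (2.39 to 22.5).

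Klra1 and Klra7 were the main T cell members. Klra1 reached 160 CPM (143 to 179) in female and 139 CPM (117 to 165) in male cells of the mixed cluster. The female value overlaps that of conventional NK cells, at 131 to 174 CPM, and the male value lies above it, at 65.4 to 108 CPM. Klra7 stood at 126 and 72.3 CPM, Klra9 at 58.0 and 40.3 CPM and Klra3 at 46.6 and 36.2 CPM, all below ILC1-like cells. Klra4 gave 33 UMIs in the female and 5 in the male cells of the cluster, and Klra8 gave 35 and 0, where a count of 0 allows up to 3.10 CPM. In the male cells 5 of the 241 cells held 51.9% of the Klra1 UMIs, and in the female cells 5 of 430 held 97.1% of the Klra8 UMIs.

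Cells of the mixed cluster with a Ly49 UMI were compared with its other cells by T cell and NK cell transcripts. At 1000 UMIs per cell, Cd3e was found in 64.6% (53.0 to 75) of the 79 female cells with a member UMI and in 55.8% (50.3 to 61.2) of the 337 without, and in 53.3% (34.3 to 71.7) of 30 and 60.2% (53.1 to 67.0) of 201 male cells. Among conventional NK cells with a member UMI, 0.676% of the female and 0.719% of the male ones held Cd3e. Ncr1, an NK receptor gene, was found in 6.33% (2.09 to 14.2) of the female T cells with a member UMI, 5 cells, and in 2.08% (0.839 to 4.23) of those without. In the male library it was found in 3.33% (0.0844 to 17.2), 1 cell, and in 0.995% (0.121 to 3.55), and the intervals overlap in both libraries. Of conventional NK cells with a member UMI 66.9% and 66.2% held it. Klrb1c, which encodes NK1.1, was found in 35.4% (25 to 47.0) of the female T cells with a member UMI and in 18.4% (14.4 to 23.0) of those without, and in 23.3% (9.93 to 42.3) and 14.9% (10.3 to 20.6) of the male ones. Tyrobp differed in the same direction: 25.3% (16.2 to 36.4) of the female cells with a member UMI held it against 7.12% (4.62 to 10.4) of those without, and 26.7% (12.3 to 45.9) against 10.9% (6.99 to 16.1) of the male ones, where the intervals overlap. Cd8a or Cd8b1 was found in 2.53% (0.308 to 8.85) and 11.9% (8.62 to 15.8) of the female cells and in 0 of 30 (up to 11.6%) and 16.4% (11.6 to 22.3) of the male cells. The share was lower in cells with Ly49 transcripts in both libraries, with intervals that just overlap in the female library.

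T cells sorted by their own transcripts gave another view. Cells with Trdc, the gamma delta receptor constant gene, and no Cd4 or Cd8 UMI held the members at 697 CPM (567 to 849) in 28 female cells and 179 CPM (97.8 to 300) in 18 male cells. Cells with Cd8a or Cd8b1 and no Cd4 or Trdc UMI held members at 104 CPM (84.5 to 126) and 35.0 CPM (20.4 to 56.0). Of these, the cells that fell in the mixed cluster stood at 291 CPM (232 to 359) and 66.2 CPM (36.2 to 111), and those in the Cd8b1-led cluster at 20.99 CPM (11.5 to 35.2) and 10.9 CPM (2.25 to 31.9). Cells with Cd4 stood at 179 CPM (135 to 232) in 78 female cells, of which 6 held a member UMI, and at 57.2 CPM (24.7 to 113) in 40 male cells, of which 1 did. At resolution 2 a cluster assigned to CD8 T cells took in Ly49-bearing cells, and the sum in CD8 T cells rose to 328 and 160 CPM.

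ILCs held 2 member UMIs in the female and 1 in the male library, which is 5.56 CPM (0.673 to 20.1) and 4.48 CPM (0.113 to 24.9). B cells, which should lack these receptors, held 12.4 CPM (7.80 to 18.8) and 8.26 CPM (3.03 to 18.0), and macrophages 14.9 and 4.64 CPM. The ILCs and the Cd8b1-led T cluster were therefore at the background of these libraries. The ILC cluster also held the mast cell genes Cpa3 and Kit among its leading genes. Clusters that stayed unnamed held 146 and 50.1 CPM, with 81.3% and 85.2% of these UMIs in 5 cells.

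To compare single cells at equal depth, 1000 UMIs were drawn from each cell and the members with a UMI were counted. Of female conventional NK cells 85.5% (81.4 to 89.1) of 346, and of male ones 84.2% (77.8 to 89.4) of 165, held at least 1 member, with a mean of 1.81 and 1.82. At least 2 members were found in 61.0% (55.6 to 66.2) and 58.8% (50.9 to 66.4). ILC1-like cells held at least 1 member in 38.98% (34.7 to 43.4) of 508 and 44.8% (37.9 to 51.9) of 203 cells, and at least 2 in 16.9% (13.8 to 20.5) and 20.2% (14.9 to 26.4). The shares of both libraries lay close together within a class and far apart between the classes.

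In the mixed T cluster 19.0% (15.3 to 23.1) of 416 and 13.0% (8.94 to 18.0) of 231 cells held a member. The background was 1.60% of female and 1.57% of male B cells, at median depths of 2266 and 1831 UMIs before the draw, against 4162 and 4047 in the mixed T cluster. Without the draw, 94.9% and 95.8% of conventional cells, 54.1% and 62.3% of ILC1-like cells and 31.9% and 22.4% of cells in the mixed T cluster held a member UMI. The order of the classes was the same.

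**Figure D3:**
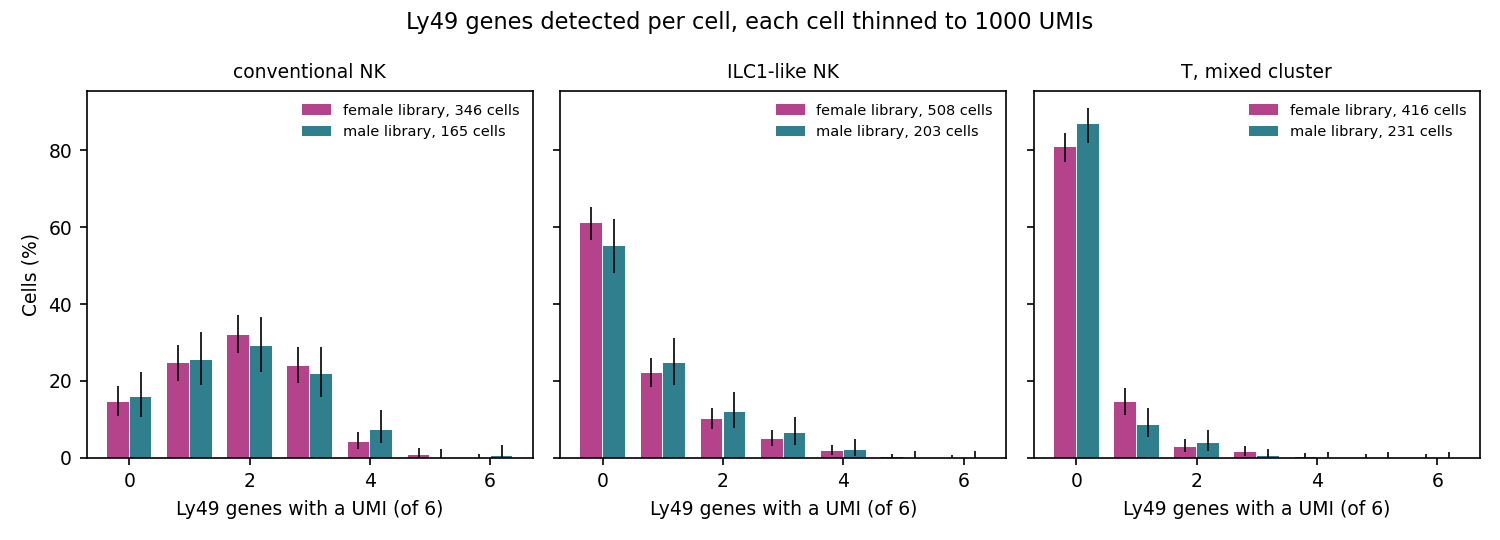
Share of cells (%) by the number of Ly49 genes with a UMI, from 0 to 6, among 1000 UMIs drawn from each cell, with 95% Clopper-Pearson intervals. In conventional NK cells 61.0% (female) and 58.8% (male) hold 2 or more, in ILC1-like NK cells 16.9% and 20.2%, and in the mixed T cluster 4.57% and 4.33%.

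Activating and inhibitory receptors were counted in the same cells. At 1000 UMIs, 73.4% of the female and 70.9% of the male conventional cells held an inhibitory member and 63.9% and 60.6% an activating one, so many cells would hold both at these shares alone. Of female conventional cells, 51.7% (46.3 to 57.1) held both kinds, 21.7% (17.4 to 26.4) inhibitory members only and 12.1% (8.89 to 16.1) activating members only, and in the male library 47.3%, 23.6% and 13.3%. In ILC1-like cells activating members alone were found in 3.94% (2.42 to 6.02) and 0.985% (0.120 to 3.51), and inhibitory members alone in 23.4% (19.8 to 27.4) and 32.5% (26.1 to 39.4). Ly49C and Ly49I, encoded by Klra3 and Klra9, bind the H-2Kb molecule of this strain. An activating member without Klra3 or Klra9 was seen in 28.9% (24.2 to 34.0) and 32.1% (25.1 to 39.8) of conventional cells, and with one of them in 35.0% (29.9 to 40.3) and 28.5% (21.7 to 36.02). A receptor with no UMI in 1000 may still be expressed, so these shares describe detection and change with depth. With 2000 UMIs drawn, an activating member without Klra3 or Klra9 was seen in 21.8% and 20.8% of conventional cells. With either of them it was seen in 51.5% and 50.3%. Activating members only were then found in 6.13% and 5.66% of conventional cells.

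The 15 pairs of members were then examined for detection in the same cell. In conventional NK cells the cells with both genes were close to the product of the single shares, with a median observed over expected of 1.04 in the female and 1.12 in the male library and a median odds ratio of 1.08 and 1.27. The interval lay above 1 for 1 pair in the female library, Klra1 with Klra8 (odds ratio 3.11, 1.07 to 10.2, 13 cells with both), and for 3 pairs in the male library. These were Klra4 with Klra8 (2.55, 1.29 to 5.12), Klra4 with Klra7 (2.49, 1.25 to 5.02) and Klra7 with Klra8 (2.01, 1.01 to 4.02), and their female odds ratios were 1.04 (0.653 to 1.65), 1.25 (0.774 to 2.01) and 1.18 (0.736 to 1.88). At this depth no pair had an interval above 1 in both libraries, and none had one below 1. With 2000 UMIs per cell Klra4 with Klra7 lay above 1 in both, at 1.67 (1.06 to 2.67) and 2.22 (1.12 to 4.45), as it did with no draw, at 1.59 (1.01 to 2.50) and 3.75 (1.85 to 7.83). Klra1 with Klra3 then lay below 1 in the female library, at 0.285 (0.0702 to 0.856) with 4 cells holding both, and at 0.317 (0.105 to 0.807) with no draw. With 15 pairs in each library, these were read as a description.

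In ILC1-like cells members were found together more often than the product of their shares. The median odds ratio was 3.01 in the female and 3.64 in the male library, and the interval lay above 1 for 9 and 7 of the 15 pairs. The activating pair Klra4 and Klra8 had the highest value at this depth, 13.3 (6.24 to 28.9) with 22 cells observed and 4.80 expected, and 14.9 (3.83 to 58.6) with 7 observed and 1.26 expected. It stayed highest in the male library at 2000 UMIs (18.2) and with no draw (34.2). In the female library Klra4 with Klra7 was as high at 2000 UMIs (10.98 against 10.8), and with no draw Klra4 with Klra7 (16.8), Klra7 with Klra8 (13.2) and Klra1 with Klra7 (12.9) stood above it (12.5), all with overlapping intervals. Klra3 and Klra9, the members with most shared sequence, had 1.67 (0.735 to 3.54) and 2.19 (0.818 to 5.80).

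ILC1-like cells were uneven in the genes that divide NK cells. The 156 female ILC1-like cells with an Eomes or Itga2 UMI held the members at 2126 CPM (2038 to 2216) and the 354 without at 786 CPM (743 to 829), and in the male library 40 cells held 2337 CPM and 164 held 906 CPM. Among cells without such a UMI the median odds ratio was 4.96 in the female and 2.63 in the male library, with 5 and 1 intervals above 1. The part of this unevenness in the pairs was not tested beyond these values.

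**Figure D4:**
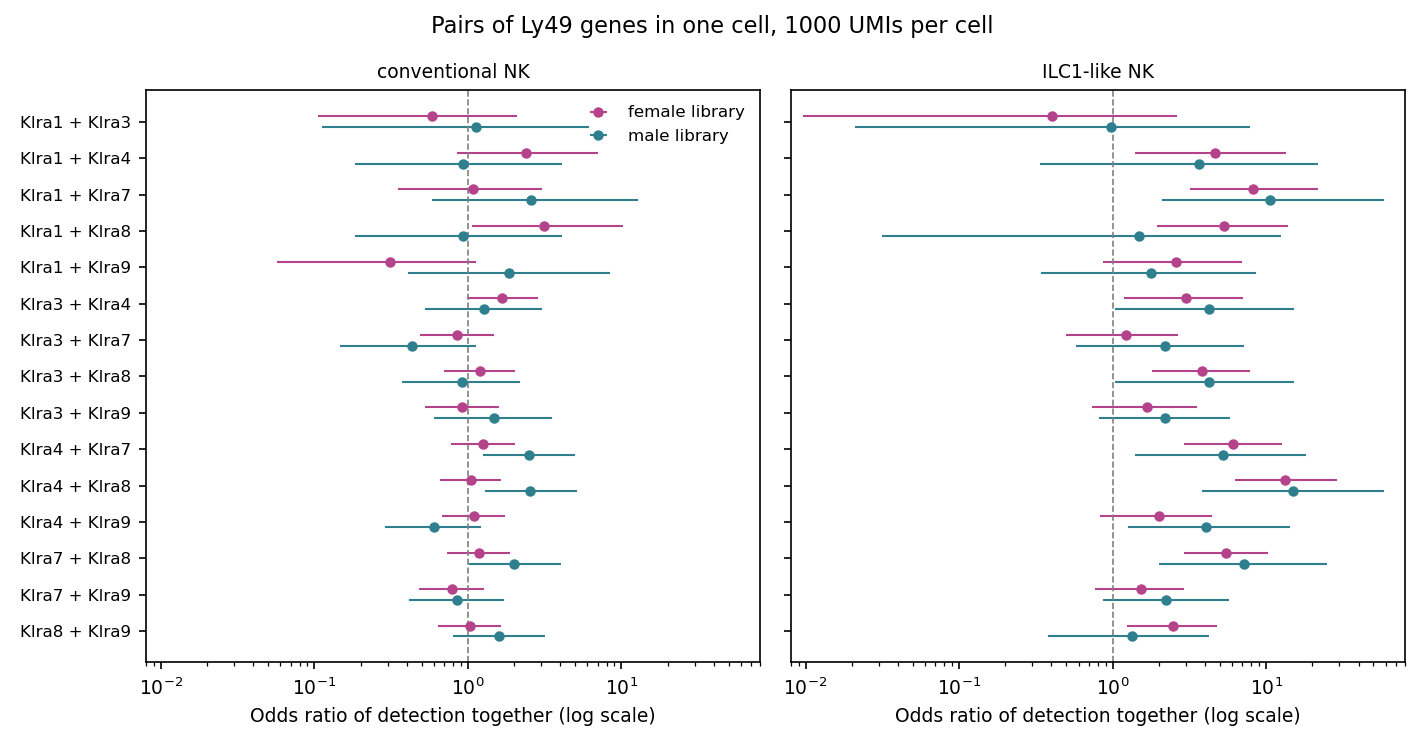
Odds ratio (log axis) of finding both genes of each of the 15 pairs in a cell, at 1000 UMIs per cell, with 95% conditional exact intervals and a dashed line at 1. Conventional NK cells scatter around 1, and in ILC1-like NK cells Klra4 with Klra8 reaches 13.3 (female) and 14.9 (male).

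Of 8 listed signalling genes, none was 2-fold higher or lower in conventional cells in both libraries. With 1.95% and 2.17% of all genes so called, this says nothing particular about them. Tyrobp, the adaptor of the activating members, stood at 3766 and 3694 CPM in conventional and 2451 and 2186 CPM in ILC1-like cells but at 219 and 155 CPM in the mixed T cluster as a whole, where the cells with a member UMI held it more often, and at 165 and 116 CPM in B cells. Hcst, a related adaptor gene, stood at 926 and 947 CPM in the same T cells. Ptpn6 stood at 146 and 150 CPM in conventional, 166 and 183 CPM in ILC1-like and 127 and 116 CPM in T cells. The ligand genes H2-K1, H2-D1 and B2m had conventional over ILC1-like ratios between 0.863 and 1.13.

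Of 9 genes of NK maturation and effector function, 6 were 2-fold higher in conventional cells in both libraries (Itgam, Klrg1, Zeb2, S1pr5, Gzma and Prf1), where 1.95% of all genes tested were. Some of them also served to check the division. Of 11 other lectin genes of the natural killer complex, 10 were tested. Past 2-fold in both libraries were Klri2, higher at 433 and 346 CPM against 210 and 160 CPM (1.95% of all genes tested), and Klrb1b, lower at 133 and 149 CPM against 302 and 317 CPM (2.17%). Klrd1, Klrk1 and Klrc2 were within 1.5-fold in both libraries.

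Conventional cells were also compared by the number of Ly49 members they held. The mean of Tyrobp was 4.37 UMIs per 1000 (4.10 to 4.67) in female cells with 2 or more members and 3.61 (3.22 to 4.04) in those with 1, and 4.39 (3.98 to 4.83) and 3.19 (2.67 to 3.78) in male cells. In cells with no member it was 3.72 (3.20 to 4.29) and 3.42 (2.75 to 4.21), which overlaps the interval of cells with 2 or more in both libraries. Gzma, the granzyme A gene, had 14.1 (13.6 to 14.7) UMIs per 1000 in female cells with 2 or more members and 10.7 (9.81 to 11.6) in those with none, and 11.1 (10.5 to 11.8) and 10.1 (8.89 to 11.4) in male cells, where the intervals overlap. Cells with 1 member had 13.5 (12.7 to 14.3) in the female and 8.50 (7.64 to 9.43) in the male library. Cd27, which falls as NK cells mature, had 0.0806 (0.0469 to 0.129) and 0.0619 (0.0227 to 0.135) UMIs per 1000 in cells with 2 or more members and 0.140 (0.0563 to 0.288) and 0.154 (0.0419 to 0.394) in cells with none, with overlapping intervals. With 1 member it had 0.0471 (0.0128 to 0.120) and 0.167 (0.0670 to 0.343), so it did not follow the number of members in the same way in both libraries. Prf1, the perforin gene, was at 1.08 (0.945 to 1.23) against 0.540 (0.356 to 0.786) in the female but at 1.14 (0.941 to 1.38) against 1.27 (0.874 to 1.78) in the male library. Female cells with 1 member had 1.19 (0.968 to 1.44) and male ones between 0.721 and 1.35 by the interval.

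The other Klra genes differed among themselves. Klra5 (Ly49E) was the one that favoured ILC1-like cells, with 79.1 CPM (68.8 to 90.4) in female and 67.9 CPM (54.0 to 84.3) in male ILC1-like cells and 12.1 and 5.31 CPM in conventional cells. Its conventional over ILC1-like ratio was 0.153 (0.0862 to 0.255) and 0.0781 (0.0208 to 0.208), the reverse of Klra4 and Klra8. Klra6 (Ly49F) stayed between 10.8 and 17.6 CPM in conventional, ILC1-like and mixed T cells, and Klra10 at 8.34 and 11.9 CPM in conventional cells. Klra2 (Ly49B) was highest in monocytes, at 268 and 304 CPM, with 170 and 157 CPM in macrophages and 1.52 and 2.65 CPM in conventional NK cells. It gave 4 and 11 UMIs in endothelial cells, 36.8 and 83.0 CPM, and stood at 4.47 and 9.87 CPM in the named dendritic cells. Klra17 (Ly49Q) gave 5 and 9 UMIs in neutrophils, 60.4 and 101 CPM.

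Over 11 named classes of both libraries (22 points, which share libraries), the profiles outside the Klra family most like the summed members among 8166 genes were those of Samd3 (Pearson r 0.985 of log2(CPM + 10)), Klrc2 (0.982), Fasl (0.981), Klrb1c (0.981), Tbx21 (0.974), Klre1 (0.974), Xcl1 (0.964), Klrc1 (0.962), Ccl5 (0.958) and Tnfrsf9 (0.954). For the activating pair alone they were led by Klri2 (0.984), Styk1 (0.968), Gzma (0.960) and Prf1 (0.956), and for the inhibitory members by Klrc2 (0.987), Fasl (0.986) and Klrb1c (0.986).

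The study sampled both sexes, and the summed Ly49 level of NK cells was close in both. The female over male ratio of the sum was 1.04 (0.989 to 1.09) in conventional and 1.02 (0.963 to 1.09) in ILC1-like cells. In the mixed T cluster it was 1.45 (1.27 to 1.67). The activating members stood there at 35.2 CPM in the female and 5.16 CPM in the male library, a ratio of 6.82 (2.78 to 21.7), with 87.9% of the female Klra4 and 97.1% of the female Klra8 UMIs in 5 cells each. Among NK cells single members went apart. Klra9 in ILC1-like cells was lower in the female library, at 258 CPM (239 to 278) against 476 CPM (437 to 516), a ratio of 0.543 (0.486 to 0.608). With 1000 UMIs drawn, 15.2% (12.2 to 18.6) of female cells and 31.5% (25.2 to 38.4) of male cells held it, and 5 cells held 12.9% of its male and 11.02% of its female UMIs. In conventional cells its ratio was 1.01 (0.900 to 1.14).

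Klra7 in ILC1-like cells went the other way, at 366 against 249 CPM, a ratio of 1.47 (1.29 to 1.68). Klra1 in conventional cells was higher in the female library, at 152 against 84.9 CPM, a ratio of 1.79 (1.34 to 2.41), with 53.1% of the 64 male UMIs in 5 cells, and Klra3 had 1.37 (1.18 to 1.61). Past 1.5-fold in either direction were 1 of 6 members in conventional cells, Klra1, where 8.82% of 5203 genes with at least 50 UMIs were, and 1 of 6 in ILC1-like cells, Klra9, where 10.1% of 7031 genes were. In the direction of lower female levels they were 0 of 6 in conventional cells, where 5.17% of genes were, and Klra9 alone in ILC1-like cells, where 7.44% were. The median log2 ratio of all genes was -0.03 and -0.12, and relative to it Klra9 stood at 0.591 and Klra7 at 1.60 in ILC1-like cells. Klra4 stood at 1.36 (1.15 to 1.61) in ILC1-like and 0.888 (0.810 to 0.974) in conventional cells.

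A few cells held much of some genes in the smaller male library. In ILC1-like cells 5 cells held 40.3% of the male and 16.5% of the female Klra4 UMIs, of 204 and 510 cells. An alternative chosen after the data were seen left out the 5 cells with most UMIs of a gene in each library. This takes a larger share of the smaller male classes and by its construction raises the female over male ratio. Of the member ratios 7 stayed within their interval, among them Klra9 in ILC1-like cells at 0.544, and 5 moved beyond it, all upward: Klra1 (2.10), Klra4 (1.84), Klra7 (1.83) and Klra8 (1.77) in ILC1-like and Klra1 (2.51) in conventional cells. With 1 library each, sex and library cannot be told apart.

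**Figure D5:**
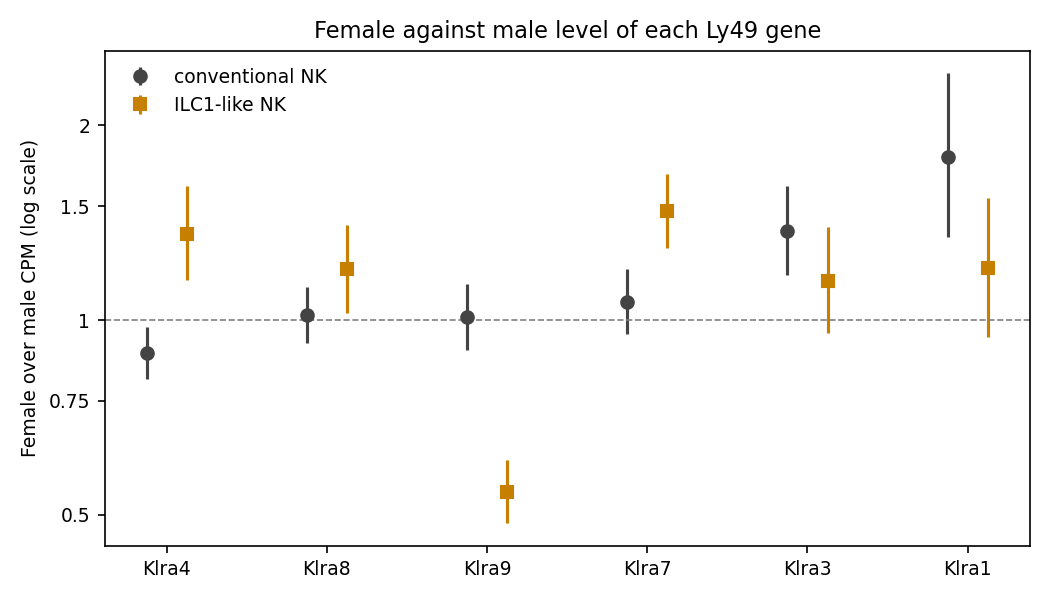
Female over male ratio of each member's CPM (log axis) in conventional and ILC1-like NK cells, with 95% conditional binomial intervals and a dashed line at 1. Klra9 in ILC1-like NK cells (0.543) lies below the line and Klra1 in conventional NK cells (1.79) above it.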

How the data were processed

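Live CD45+ cells of adrenal glands were sequenced as 1 female and 1 male droplet library with 3′ chemistry. The authors aligned reads to mm10 and deposited raw UMI counts per gene and barcode from Cell Ranger 4.0.0, after removing barcodes of noise. The female file held 3963 barcodes and 16218309 UMIs, the male file 2685 and 9512670.

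Barcodes with fewer than 200 genes or over 15% mitochondrial UMIs were left out. The ceiling of 1.2% stated in the study's methods would have kept 327 and 359 barcodes, far fewer than the cells the study states it kept, and it was not used. Scrublet (scanpy 1.11.5) marked 2 and 10 doublets by its own threshold, so the highest scores were removed instead at 0.8% per 1000 barcodes, 124 female and 52 male cells. Libraries were integrated with Seurat 5.3.0 and sctransform 0.4.2 (R 4.3.3) and clustered at resolution 1 without Klra genes. A cluster was named where at least 3 markers of a class were raised 2-fold and found in 20% of cells, 75% of cells held a marker and no other class had more markers among the 10 leading genes. Proliferating clusters, and shallow ones with no marker among those genes, stayed unnamed. The rule was relaxed after the clusters were seen. NK clusters were divided by pooled CPM of Eomes and Itga2 against Itga1 and Cd160, and T clusters by a subset gene in 50% of cells.

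UMIs were summed per library and class in Python 3.11.15 with SciPy 1.17.1. Intervals are exact at 95%: Poisson for CPM, conditional binomial for ratios, Clopper-Pearson for shares and conditional for odds ratios. A count of 0 was read as allowing 3 counts. For single cells 1000 UMIs were drawn from each cell, and cells with fewer were left out. The scripts were tested on simulated data. Members, gene lists and tests were chosen with earlier results of these data known. Genes named include the members, the other Klra genes, the lists of signalling, ligand, maturation and lectin genes, and the 10 genes with the most similar profile. Marker genes of the cell classes and leading genes of clusters are named too. A gene of the maturation list is not reported here.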

Additional observations from a re-analysis of the deposited data

Results flagged for a closer look

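Klra4 had opposite directions between the sexes in the 2 kinds of NK cell. Its female over male ratio was 1.36 in ILC1-like cells and 0.888 in conventional cells. The difference between these ratios was not tested, since each sex had 1 library. In ILC1-like cells 5 of 204 male cells held 40.3% of the Klra4 UMIs and 5 of 510 female cells 16.5%. Without these cells, and without the corresponding 5 in conventional cells, the ratios were 1.84 and 0.945 (0.856 to 1.04), but this removes a larger share of the male cells, which raises both ratios by its construction.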

How the results depend on the processing

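No ratio of a member changed from above to below 1 in conventional against ILC1-like cells under the alternatives run. No paired analysis was possible because each sex had 1 library. Clustering at resolution 2 left a cluster of ILC1-like cells unnamed, and the summed ratio fell to 2.18 in the female and 2.28 in the male library. The activating share in ILC1-like cells was then 35.7% and 24.7%, at least 1 member was found in 52.5% and 55.4% of them and at least 2 in 23.8% of the female ones. The sum was then 344.0 CPM in the female mixed T cells and 328 and 160.1 CPM in CD8 T cells. With NK cells divided by their own UMIs the female summed ratio was 2.26, at least 1 member was found in 80.2% of female conventional cells, and the female over male sum was 0.903 in conventional and 1.10 in ILC1-like cells. With T cells divided by their own UMIs the sum was 383 and 346 CPM in undivided and 104 and 35.0 CPM in CD8 T cells. Without doublet removal the female summed ratio was 2.62 and the female mixed T sum 392 CPM. With Ly49 genes among the clustering features the male summed ratio was 2.97, the female over male sum in conventional cells 0.981, the female mixed T sum 389.7 CPM and 2 female conventional pairs had intervals above 1. At 2000 UMIs conventional cells held at least 1 member in 93.6% and 92.5% and at least 2 in 79.4% and 76.1%, ILC1-like cells at least 1 in 47.2% and 54.5% and at least 2 in 24.8% of female cells, and 2 female conventional pairs had intervals above 1. With no draw these shares were 94.9% and 95.8%, 85.5% and 83.8%, 54.1% and 62.3%, and 33.5% and 32.4%, with 4 and 1 conventional pairs. Without the 5 cells with most UMIs in each library, chosen after seeing the data, the female over male sum in ILC1-like cells was 1.10, but this removes a larger share of the male cells and so raises the ratio by its construction, and nothing was read from it. A mitochondrial ceiling of 5% and, chosen after seeing the data, keeping cells with at least 1000 UMIs moved no main value beyond its interval. The causes were not tested. Low counts limit Klra1 in male conventional cells (64 UMIs) and all pairs with Klra1.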
